A study of Mus musculus with 7 samples.

Results

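The 55 genes described here encode the machinery that brings proteins into the endoplasmic reticulum (ER), removes those that fail to fold and exports the rest to the Golgi. They were chosen by symbol as a list, with earlier results of these data known. All 55 were found among the 49382 genes of the expression table. They fall into 18 genes of ER-associated degradation, 15 of the translocon and signal peptidase, 7 of signal recognition, and 15 of the COPII coat with its cargo and KDEL receptors. Levels are in TPM, a transcript's share of its library corrected for length. Only genes averaging 2 TPM or more over the 7 libraries were tested, 12909 in all, and that filter removed no member. Derl3 passed it only through its level in ER stress, 331 TPM.

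The libraries came from wild-type mouse embryonic fibroblasts (MEFs), primary cells grown out of mid-gestation embryos after the head and red tissue had been taken off, and used after a few passages. 1 library was made from control cells and 1 from each of 6 conditions, to ask how fibroblasts respond to changes in their environment. ER stress was 1 µM thapsigargin for 10 h, a drug that blocks the calcium pump of the ER and so drains its calcium. Glucose depletion and glutamine depletion were culture without that nutrient for 10 h, and hypoxia was 0.1% oxygen for 10 h. Oxidative stress was 10 µM sodium arsenite (NaAsO2) for 3 h, and osmotic stress was 100 mM added NaCl for 3 h. The labels give no time for the control, so the time in culture and the treatment cannot be told apart, and the 3 h and 10 h conditions differ in duration as well as in agent. With 1 library per condition, none of the differences has a replicate check, and the 6 comparisons share the same control library.

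Secretory and membrane proteins are recognised by their signal sequence as they leave the ribosome, are threaded through the SEC61 channel and have the signal cut off by signal peptidase. Proteins that do not fold are recognised by lectins, moved back to the cytosol, marked with ubiquitin by the membrane ligase SYVN1 (also called HRD1) and pulled out by the ATPase VCP for destruction by the proteasome. Proteins that fold leave in COPII-coated vesicles, and fibroblasts, which secrete large amounts of collagen, depend heavily on this route. In the unfolded protein response, the sensors IRE1, PERK and ATF6 raise the transcription of many genes of these pathways, and ATF6 and XBP1 bind promoter elements named ERSE, ERSE-II and UPRE.

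The promoters of 3 degradation genes are shown because they hold an ERSE or ERSE-II in the window searched. They are given in the order of their increase in ER stress. The sequences are the 250 bases before the transcription start, from RefSeq (GRCm38.p6, plus strand, 5′ to 3′). Capitals mark the ERSE, which is CCAAT and CCACG with 9 bases between them, or the ERSE-II, which is ATTGG and CCACG with 1 base between them. In Derl3 the element lies on the other strand, so it reads there as CGTGG before ATTGG.
Derl3, chr10:75893148-75893397: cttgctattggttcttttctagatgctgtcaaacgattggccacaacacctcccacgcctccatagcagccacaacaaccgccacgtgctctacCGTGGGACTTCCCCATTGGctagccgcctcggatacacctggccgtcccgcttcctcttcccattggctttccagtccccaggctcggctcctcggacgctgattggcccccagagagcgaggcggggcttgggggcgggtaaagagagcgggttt
Herpud1, chr8:94386179-94386428: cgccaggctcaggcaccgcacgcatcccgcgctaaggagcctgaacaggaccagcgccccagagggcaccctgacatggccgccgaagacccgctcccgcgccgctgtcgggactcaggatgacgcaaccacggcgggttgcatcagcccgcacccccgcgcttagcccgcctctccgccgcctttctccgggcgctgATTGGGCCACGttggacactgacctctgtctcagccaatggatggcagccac
Syvn1, chr19:6046326-6046575: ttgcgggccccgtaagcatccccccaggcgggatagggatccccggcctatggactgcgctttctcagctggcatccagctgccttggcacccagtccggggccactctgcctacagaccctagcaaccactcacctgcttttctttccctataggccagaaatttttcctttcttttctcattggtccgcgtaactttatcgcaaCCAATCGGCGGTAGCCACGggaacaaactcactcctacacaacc
The ERSE begins 156 bases before the start of Derl3 and 44 bases before that of Syvn1, and the ERSE-II begins 52 bases before that of Herpud1.

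Genes known to respond to the treatments were checked first. Hspa5, the main ER chaperone, stood at 12611 TPM in ER stress against 1165 TPM in the control, a difference of 3.44 on the log2(TPM + 1) scale, which is the scale of every difference given here. Differences of other such genes were 4.50 for Hmox1 in oxidative stress, 4.85 for Bnip3 in hypoxia, -2.07 for Txnip in glucose depletion and 2.66 for Akr1b3 in osmotic stress. Txnip was lower still in osmotic stress (-3.12). Other checks were also not particular to 1 treatment. Hmox1 differed by 2.75 in ER stress, and Slc2a1 by 2.85 in hypoxia and 1.41 in oxidative stress. Xbp1 and Ddit3 differed by 1.17 and 3.77 in ER stress, and by -1.26 and -1.46 in osmotic stress. For glutamine depletion the gene checked, Asns, differed by only 0.25, less than in ER stress (1.16), so that treatment left no change past 2-fold in its check. The 9 fibroblast markers summed to between 6166 and 12813 TPM, against 6.13 to 14.6 TPM for 5 macrophage markers and at most 11.6 TPM for epithelial, 5.37 TPM for endothelial and 0.503 TPM for erythroid markers. The lowest fibroblast sum was that of ER stress, where all 9 markers were below the control and 3 were past 2-fold, namely Lum (-2.33), Col3a1 (-2.07) and Pdgfrb (-1.15). The part of this shift in the results on ER stress was not tested. In bulk libraries, fewer cells of a type and less RNA per cell cannot be told apart. The libraries had between 19819 and 21154 genes above 0 TPM.

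The members were abundant in unstressed fibroblasts. Their median level in the control was 96.2 TPM, against 20.2 TPM for all genes tested, and the median member stood at the 86.9th percentile of control levels. Derl3 was the exception at the 4.21st percentile, with 1.65 TPM. In all, the 55 genes made up 0.695% of the control library, between 0.633% and 0.765% of the other libraries outside ER stress, and 1.36% of the ER stress library. The summed level in ER stress was thus 1.95 times that in the control. The ratio was 3.39 for degradation, 1.72 for the translocon and signal peptidase, 1.72 for signal recognition and 1.35 for COPII and the KDEL receptors.

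In ER stress, 19 of the 55 members rose past 2-fold and 0 fell, where 8.60% of all genes tested rose and 11.0% fell. Among genes averaging 10 TPM or more, 7.67% rose and 9.47% fell. The list was chosen with earlier results of these data known, so these shares are a description. The difference was above 0 for 50 members, against 49.9% of genes tested, and the member median was 0.75, against 0 for all genes tested. The level was highest in ER stress for 43 members, and this held for 33.2% of genes tested. For 10 members it was more than 2-fold above the highest of the other 6 libraries, as it was for 3.37% of genes tested. These 10 were Derl3, Herpud1, Syvn1, Sel1l, Derl1, Sec23b, Srprb, Edem1, Sec11c and Edem2, so 7 of them belong to degradation. Both counts rest partly on values at the threshold, with 1 library each. Sec11c (1.01) and Edem2 (1.001) lay just above it on the log2 scale. Sec11a (0.98), Ube2g2 (0.96), Spcs2 (0.94) and Mcfd2 (0.92) lay just below.

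**Figure D1:**
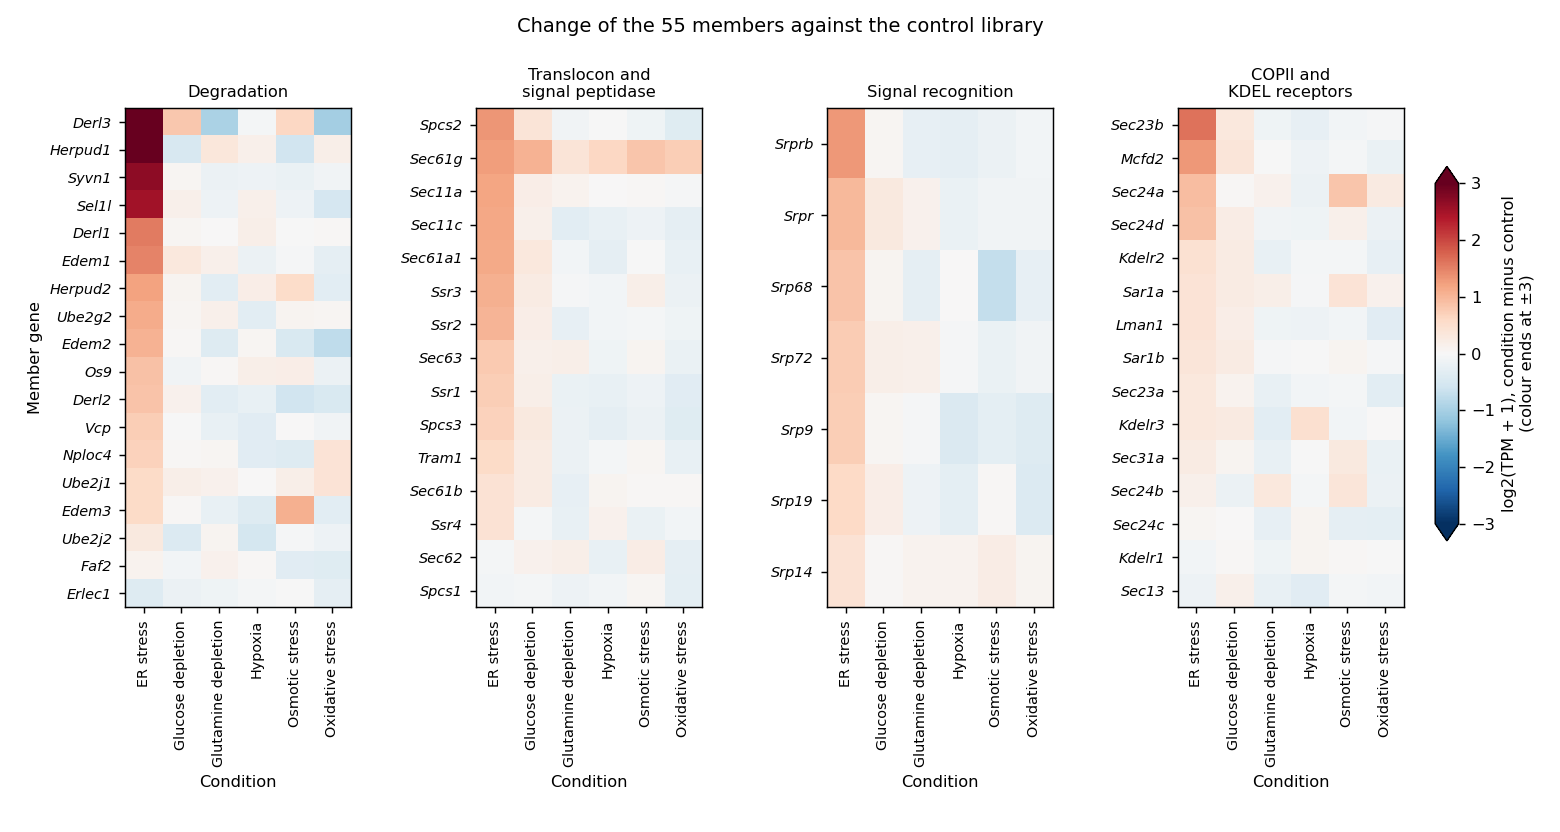
Difference of each member from the control on the log2(TPM + 1) scale, in 6 conditions (columns) and 4 steps (panels), with genes ordered by ER stress. 19 members rose past 2-fold in ER stress, and outside that column the changes past 2-fold were Sec61g in glucose depletion, Edem3 in osmotic stress and Derl3 in oxidative stress.

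Degradation had the largest increases, with 9 of 18 members up in ER stress (50%, beside 8.60% of all genes tested) and a median of 0.96. Derl3 encodes a Derlin, a membrane protein of the channel through which misfolded proteins leave the ER. Its level was 331 TPM in ER stress, 1.65 TPM in the control, 3.64 TPM in glucose depletion, 0.372 TPM in glutamine depletion, 1.52 TPM in hypoxia, 3.06 TPM in osmotic stress and 0.300 TPM in oxidative stress. ER stress stood apart from the other 6 libraries, which reached at most 3.64 TPM, and the difference from the control was 6.97. Since the control level was near the pseudocount of 1 TPM, that size depended on it, with 7.56 at a pseudocount of 0.1 TPM and 5.66 at 5 TPM. Derl3 also passed the filter only through its ER stress level, so its call in ER stress is not independent of the filter.

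Herpud1 encodes an ER membrane protein with a ubiquitin-like domain that helps to assemble the SYVN1 complex. It stood at 1698 TPM in ER stress, 102 TPM in the control, 72.7 TPM in glucose depletion, 130.3 TPM in glutamine depletion, 113 TPM in hypoxia, 68.2 TPM in osmotic stress and 115 TPM in oxidative stress. The difference in ER stress was 4.04, and the lowest level was that of osmotic stress, at -0.57. Syvn1, the ubiquitin ligase, stood at 258 TPM in ER stress, 39.1 TPM in the control and 34.1 to 40.5 TPM over the 6 libraries outside ER stress, a difference of 2.69. Sel1l, the adaptor that holds the ligase and hands it substrates, stood at 497 TPM in ER stress, 85.2 TPM in the control and 60.2 to 95.4 TPM in the 6, a difference of 2.53. For both genes ER stress was the only library above 100 TPM.

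Derl1, the most abundant Derlin in the control, was at 183 TPM in ER stress and 61.5 TPM in the control, with 61.3 to 69.1 TPM over the 6 libraries outside ER stress. Its difference was 1.56, and outside ER stress its levels lay close together. Edem1, a lectin-like protein that helps to trim mannose from misfolded glycoproteins, was at 238 TPM in ER stress against 83.5 TPM in the control and 69.5 to 105 TPM in the 6, a difference of 1.5. Its paralog Edem2 was at 45.7 TPM against 21.5 TPM, a difference of 1.05 that became 0.93 with a pseudocount of 5 TPM. Herpud2 went from 31.2 to 73.1 TPM, a difference of 1.20. Ube2g2, a ubiquitin-conjugating enzyme that works with ER ligases, went from 69.1 to 151 TPM, a difference of 1.12.

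The other 9 degradation members stayed within 2-fold in ER stress. Just under the threshold were Os9, a lectin that delivers substrates to SEL1L (0.88), and Derl2 (0.85). Vcp, the ATPase that extracts substrates from the membrane, was at 640 TPM in ER stress against 381 TPM in the control, a difference of 0.75, and its adaptor Nploc4 differed by 0.70. The conjugating enzymes Ube2j1 and Ube2j2 differed by 0.57 and 0.30, Edem3 by 0.56 and Faf2, which recruits VCP to the membrane, by 0.10. Erlec1, the other lectin of the SEL1L complex, had the lowest value of all 55 members, with 61.6 TPM in ER stress against 80.8 TPM in the control (-0.39). It was below the control in all 6 conditions, with differences from -0.39 to -0.0085. These differences share 1 control library, and 48.5% to 66.0% of genes tested were below 0, depending on the condition.

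**Figure D2:**
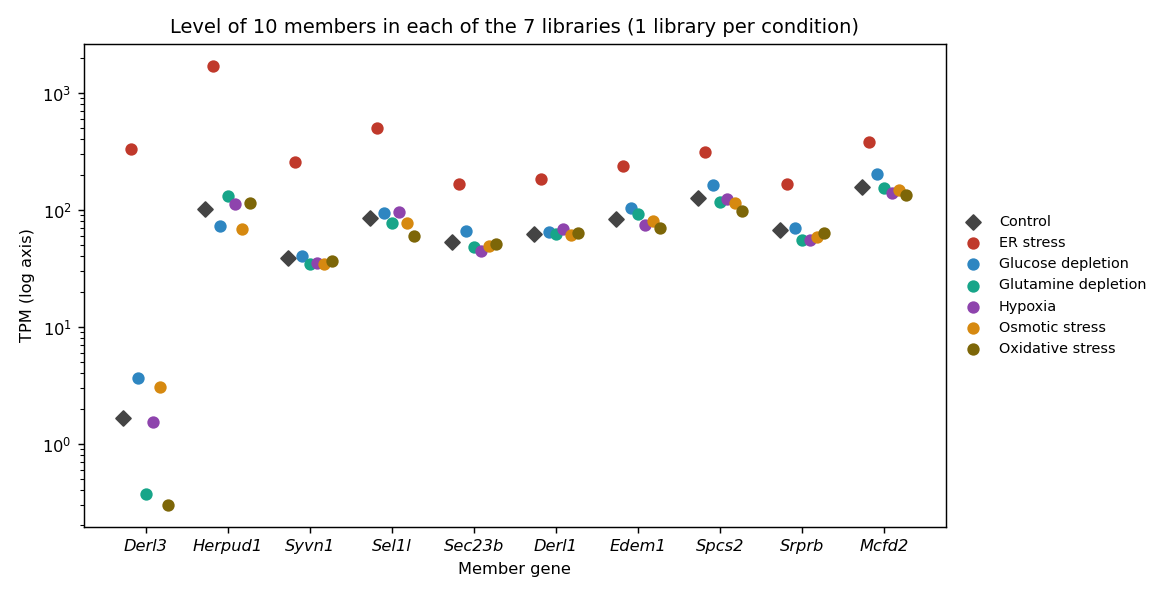
Level in TPM (log axis) of the 10 members with the largest increases in ER stress, 1 point per library, with the control as a diamond. The ER stress point lies above the other 6 for each gene, by most for Derl3, at 331 TPM against at most 3.64 TPM.

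In the translocon and signal peptidase, 7 of 15 members rose in ER stress (46.7%, beside 8.60% of all genes tested), with a median of 0.78. The largest was that of Spcs2, a noncatalytic subunit of signal peptidase, followed by the channel subunit Sec61g (1.26, described further on). Spcs2 went from 126 TPM in the control to 314 TPM in ER stress, a difference of 1.31, with 97.3 to 163 TPM over the 6 libraries outside ER stress. The catalytic subunits Sec11a (133 to 302 TPM) and Sec11c (42.5 to 96.4 TPM) differed by 1.18 and 1.16. Spcs3 differed by 0.69, while Spcs1 was at 284 TPM against 299.9 TPM (-0.08). The increase past 2-fold therefore covered both catalytic subunits and 1 of the 3 noncatalytic subunits.

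Sec61a1, the pore-forming subunit of the channel, went from 212 to 468 TPM, a difference of 1.14. Sec61b, a small subunit, differed by 0.44. Of the TRAP complex, which assists translocation beside the channel, Ssr3 went from 411 to 858 TPM (1.06) and Ssr2 from 246 to 501 TPM (1.02), while Ssr1 differed by 0.74 and Ssr4 by 0.43. Sec63 (0.78), Tram1 (0.57) and Sec62 (-0.06), which aid the passage of nascent or finished chains, stayed within 2-fold. Most of these increases were close to the threshold. Against the glucose depletion library in place of the control, Sec61a1 (0.83), Ssr2 (0.83), Ssr3 (0.82), Sec11a (0.98), Spcs2 (0.94) and Sec61g (0.21) were no longer past 2-fold, and only Sec11c (1.01) remained so among the 7.

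Sec61g, the third channel subunit, was the only member past 2-fold in more than 1 condition in the same direction. Its level was 15.7 TPM in the control, 39.1 TPM in ER stress, 33.5 TPM in glucose depletion, 20.8 TPM in glutamine depletion, 24.9 TPM in hypoxia, 28.8 TPM in osmotic stress and 26.8 TPM in oxidative stress. The control was the lowest of the 7, so all 6 differences were above 0, from 0.38 to 1.26. The value is uncertain because 15.7% of the 31-base words in the transcripts of Sec61g also occur in Gm10177, a near copy of the gene listed at 439 to 480 TPM in every library. Summed over both genes, the level was 495 TPM in the control and 466 to 513 TPM over the 7 libraries, and the difference was 0.04 in ER stress and 0.05 in glucose depletion. Sec61g made up only 3.18% to 7.68% of that sum, so the sum could not have passed 2-fold through Sec61g at these levels and does not test its rise. How the authors' quantification split shared reads between the pair was not tested. Leaving the uncertain call out gives 18 members up in ER stress and 0 in glucose depletion.

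**Figure D3:**
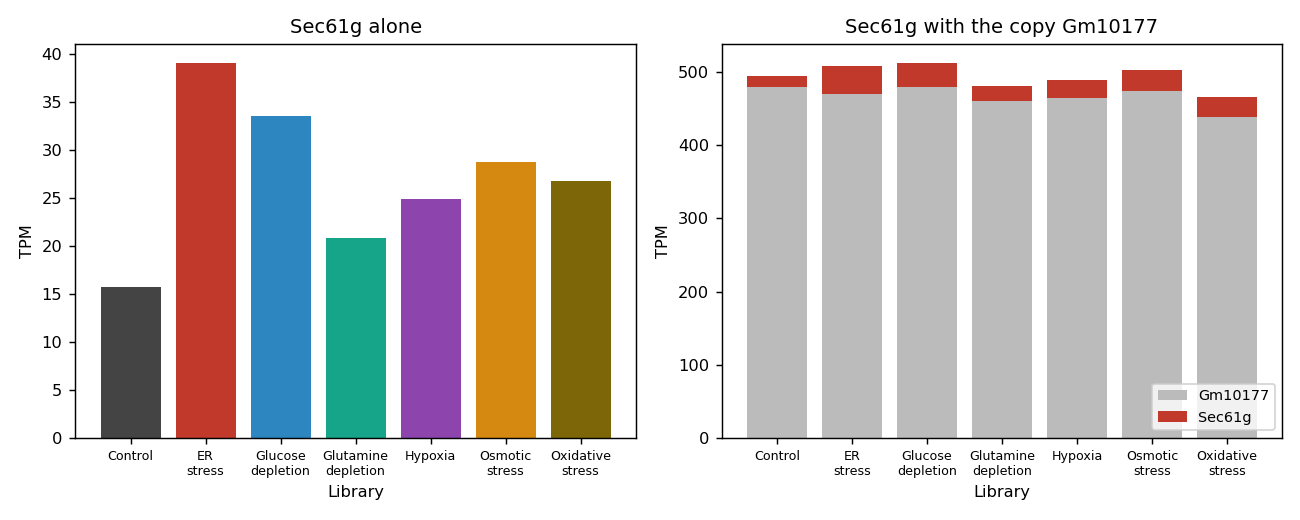
Level in TPM of Sec61g in each library (left) and of Sec61g stacked on its copy Gm10177 (right), 1 bar per library. Sec61g alone runs from 15.7 to 39.1 TPM, while the sum of both stays between 466 and 513 TPM.

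Ssr2 also shares 15.0% of its 31-base words, mostly with the row named 2700060E02Rik. Summed with its partners, which the sum also dilutes with a row listed at 179 TPM in ER stress against 169 TPM in the control, its difference in ER stress was 0.71 instead of 1.02. How shared reads were divided was not tested. Vcp shares 46.3% of its words, largely with Vcp-rs, but took at least 99.3% of the summed level in every library, and the difference of the sum was 0.75, as for Vcp alone.

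In signal recognition, 1 of 7 members rose in ER stress (14.3%, beside 8.60% of all genes tested), and the median was 0.77. With so few members, that count cannot be set apart from the share of all genes. Srprb, the beta subunit of the receptor that docks the signal recognition particle at the ER, was at 166 TPM against 66.6 TPM in the control and 55.3 to 69.9 TPM over the 6 libraries outside ER stress, a difference of 1.31. Srpr, the alpha subunit, went from 146 to 287 TPM, and at 0.97 it was the member closest below the threshold. The protein subunits of the particle itself were all above the control but within 2-fold, from 0.42 for Srp14 through 0.59 for Srp19, 0.74 for Srp9 and 0.77 for Srp72 to 0.86 for Srp68. The step was thus narrow, with every member between 0.42 and 1.31.

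For COPII and the KDEL receptors, 2 of 15 members rose in ER stress (13.3%, beside 8.60% of all genes tested). That count, too, is too small to set apart from the share of all genes. The median of 0.35 was the lowest of the 4 steps. Sec23b, a subunit of the inner coat, stood at 166 TPM in ER stress, 52.7 TPM in the control, 65.5 TPM in glucose depletion, 48.0 TPM in glutamine depletion, 44.3 TPM in hypoxia, 49.5 TPM in osmotic stress and 51.2 TPM in oxidative stress. Its difference of 1.64 contrasted with 0.31 for its paralog Sec23a (124 to 154 TPM). Mcfd2, which with the lectin LMAN1 carries selected glycoproteins out of the ER, went from 155 to 382 TPM (1.29), while Lman1 itself differed by 0.40. Against the glucose depletion library Mcfd2 differed by 0.92.

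Among the SEC24 subunits, which select cargo, Sec24a (0.93) and Sec24d (0.87) lay just under the threshold, whereas Sec24b (0.15) and Sec24c (0.06) were near the control. The outer coat subunits Sec31a (0.25) and Sec13 (-0.14) and the coat GTPases Sar1a (0.41) and Sar1b (0.35) also stayed within 2-fold. The KDEL receptors return escaped ER chaperones from the Golgi. Kdelr1 was at 220 TPM in ER stress against 232 TPM in the control (-0.08), Kdelr2 at 371 TPM against 271 TPM (0.45) and Kdelr3 at 191 TPM against 154 TPM (0.31). None of the 3 receptors was past 2-fold in any condition, and the highest level of Kdelr3 was that of hypoxia, at 216 TPM (0.48).

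**Figure D4:**
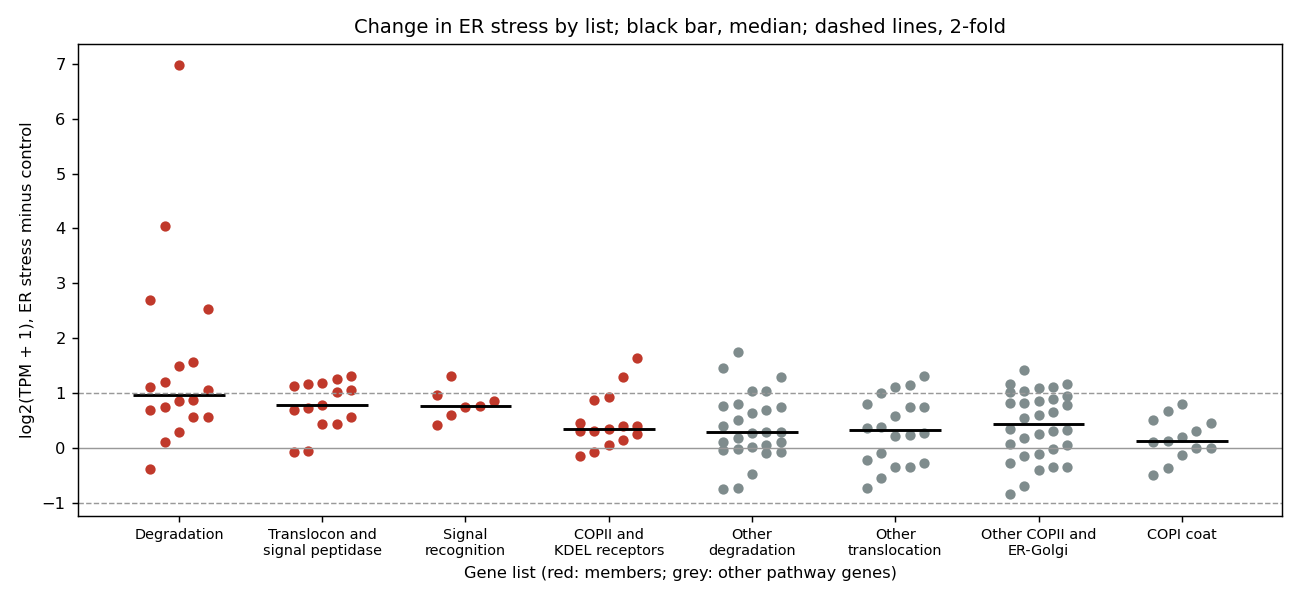
Difference between ER stress and control on the log2(TPM + 1) scale, 1 point per gene, for the 4 steps (red) and for 4 lists of other genes of the same pathways (grey). Black bars are medians, from 0.96 for degradation to 0.35 for COPII and the KDEL receptors among the members, and the dashed lines mark 2-fold.

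Other genes of these pathways moved in the same comparison as follows. Of 27 other degradation genes that passed the filter, 5 rose and 0 fell in ER stress, with a median of 0.29. The largest were Selenos (1.75) and Selenok (1.46), selenoproteins that bind the Derlins, and Erlin1 (1.29). Of 20 other translocation rows, 4 rose and 0 fell, with a median of 0.32. They were both rows named Srp54a (1.31 and 1.01) and Srp54b (1.14), near-identical copies of the GTPase subunit of the signal recognition particle whose reads may be split between them, and Hspa13 (1.12), an ER-associated member of the HSP70 family.

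Of 32 other genes of COPII and of transport between ER and Golgi, 7 rose and 0 fell, with a median of 0.44. The largest were Ctage5 (1.42), which helps to load large cargo such as collagen, the SNARE gene Stx5a (1.17) and Tfg (1.16), which organises ER exit sites. The COPI coat, which carries vesicles back to the ER, had 0 of 13 genes past 2-fold in either direction and a median of 0.12. The shares past 2-fold upward were thus 34.5% of the members, 18.5%, 20.0% and 21.9% of the first 3 lists, and 0% of COPI, beside the 8.60% of all genes tested. The 20.0% counts each Srp54a and Srp54b row, near-identical copies that are not independent. The COPI list is too short for 0 of 13 to be set apart from 8.60%. The members and the lists were chosen with earlier results of these data known, so the order of these shares is a description.

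Outside ER stress, at most 1 member per condition was past 2-fold, near or below the shares of all genes tested. Among genes averaging 10 TPM or more, those shares were lower still. They were 0.748% up and 1.04% down in glucose depletion, 2.43% and 1.61% in glutamine depletion, and 2.00% and 1.49% in hypoxia. In osmotic stress they were 1.79% and 4.92%, and in oxidative stress 2.63% and 2.83%. In glucose depletion, 1 member rose (Sec61g, 1.04) and 0 fell, where 1.83% of genes tested rose and 2.41% fell. The median was 0.14 against -0.022 for all genes tested, and 46 of 55 members were above 0, against 44.5% of genes tested. This slight shift was found in the translocon and signal peptidase (0.20) and in COPII and the KDEL receptors (0.19) more than in signal recognition (0.082) or degradation (0.047). Hspa5 differed by 0.54 in the same library. After Sec61g, the largest values were those of Derl3 (0.81, at 3.64 TPM), Spcs2 (0.38) and Mcfd2 (0.37), and the lowest that of Herpud1 (-0.48).

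In glutamine depletion, 0 members were past 2-fold, where 3.21% of genes tested rose and 3.21% fell. The member median was -0.13, against -0.089 for all genes tested. The range ran from -0.95 for Derl3, at 0.372 TPM, to 0.38 for Sec61g. In hypoxia, 0 members were past 2-fold, where 3.57% of genes tested rose and 2.64% fell. The median was -0.073 against -0.048 for all genes tested, and the range ran from -0.54 for Ube2j2 to 0.63 for Sec61g. In both conditions the member median lay close to that of all genes tested.

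In osmotic stress, 1 member rose and 0 fell, where 3.08% of genes tested rose and 8.76% fell. Edem3, the third EDEM paralog, was at 71.6 TPM in osmotic stress, 33.4 TPM in the control, 49.9 TPM in ER stress, 34.5 TPM in glucose depletion, 28.6 TPM in glutamine depletion, 25.3 TPM in hypoxia and 26.7 TPM in oxidative stress. The difference of 1.08 was the only change past 2-fold of a member that was not highest in ER stress, and it was 0.99, no longer past 2-fold, at a pseudocount of 5 TPM. Sec24a, which was within 2-fold, followed at 0.84 (40.6 TPM, against 22.2 TPM in the control). The lowest value was that of Srp68 (-0.72), with Derl2 at -0.58 and Herpud1 at -0.57. The member median was -0.026 and that of all genes tested -0.12, so centring on the latter turned the former to 0.094.

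Sec24a lies head to head with Sar1b on chromosome 11, with 52 bases between the annotated genes (GRCm38, Sec24a at chr11:51692264-51763634 on the minus strand and Sar1b at chr11:51763687-51791925 on the plus strand). The neighbours differed in both conditions in which Sec24a was highest. Sar1b had a difference of 0.35 in ER stress and 0.09 in osmotic stress, against 0.93 and 0.84 for Sec24a.

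In oxidative stress, 1 member fell and 0 rose, where 3.94% of genes tested rose and 4.85% fell. The fall was that of Derl3 (-1.03), from 1.65 to 0.300 TPM, a change between low levels. It was -0.33 with a pseudocount of 5 TPM, and Derl3 was among the genes tested only through its level in ER stress. Of the 55 members, 44 were below 0, against 66.0% of genes tested, and the median was -0.18 against -0.16. Next lowest was Edem2 (-0.77, 12.2 TPM), and the highest values were those of Sec61g (0.73), Ube2j1 (0.42) and Nploc4 (0.41).

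Over all 6 conditions, 20 members were past 2-fold at least once, 17 of them in ER stress alone, and 35 never were. Of all genes tested, in either direction, 34.4% were past 2-fold at least once, 11.9% in ER stress alone and 65.6% never, so the members stood near the background in the first and last of these counts. The 35 lay between -0.39 and 0.97 in ER stress (median 0.44), between -0.40 and 0.29 in glucose depletion, between -0.32 and 0.33 in glutamine depletion, between -0.54 and 0.48 in hypoxia, between -0.72 and 0.84 in osmotic stress and between -0.45 and 0.42 in oxidative stress. Kdelr1 was the steadiest member, with 1.17 times between its highest and lowest TPM, and Derl3 the least steady, with 1103 times.

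Because TPM is a level per length, paralogs can be set side by side as shares of their family within a library, and such shares do not depend on the pseudocount or the filter. Among the Derlins, Derl1 and Derl2 held 51.4% and 47.2% of the summed TPM in the control and Derl3 held 1.38%. In ER stress Derl3 held 53.6%, against 0.288% to 3.00% in the other 6 libraries, and the family sum went from 119.7 to 617 TPM. The least abundant Derlin of unstressed cells was therefore the most abundant under thapsigargin.

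Other families changed their make-up as well. Sec23b held 51.8% of the SEC23 sum in ER stress and 27.3% to 34.1% in the other 6 libraries. Herpud1 held 95.9% of the HERPUD sum in ER stress and 59.7% to 83.9% elsewhere. Sec24d held 47.8% of the SEC24 sum in ER stress and 34.2% to 42.7% elsewhere. For the KDEL receptors, Kdelr1 held 28.1% in ER stress and 31.8% to 37.7% elsewhere, while Kdelr2 held 47.4% in ER stress and 36.1% to 43.4% elsewhere.

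Edem3 held 42.6% of the EDEM sum in osmotic stress, where Edem1 held 48.2%, against 24.1% and 60.3% in the control. In ER stress Edem1 held 71.4% of a sum that had gone from 138 to 334 TPM. In contrast, the catalytic signal peptidase subunits kept their proportions. Sec11a held 75.8% of the SEC11 sum both in the control and in ER stress, although the sum went from 175 to 399 TPM. Sar1a likewise held 82.8% of the SAR1 sum in the control and 83.2% in ER stress.

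**Figure D5:**
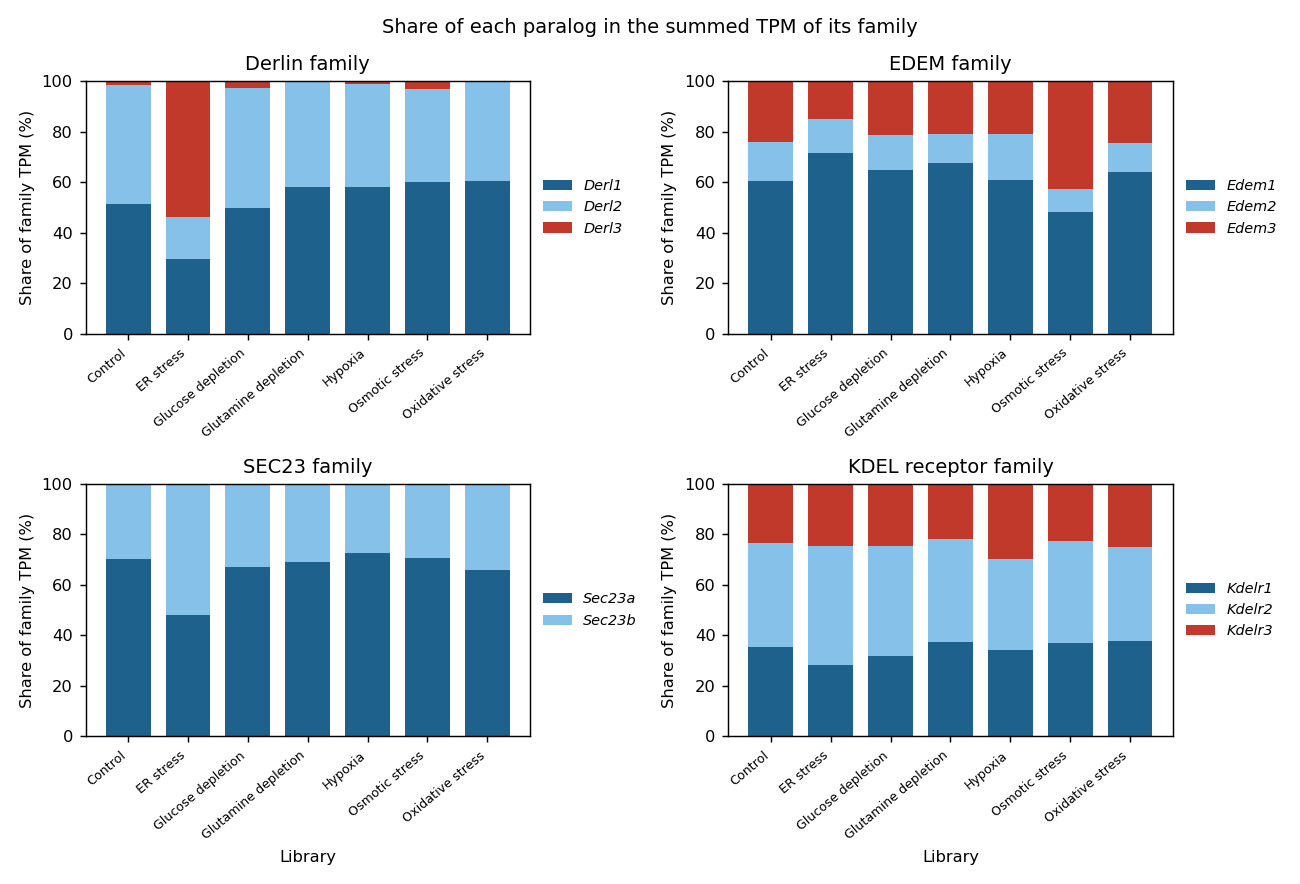
Share in percent of the summed TPM of 4 paralog families taken by each paralog, 1 stacked bar per library. Derl3 takes 53.6% of the Derlin bar in ER stress against at most 3.00% elsewhere, Edem3 42.6% of the EDEM bar in osmotic stress and Sec23b 51.8% of the SEC23 bar in ER stress.

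Promoter windows from 250 bases before to 50 bases after the start, taken from RefSeq (GRCm38.p6), were available for 43 of the 55 members, for 27025 genes in all and for 9014 of the genes tested. Both strands were searched for exact matches. The ERSE occurred in 2 of the 43 members (Derl3 and Syvn1, 4.65%), in 0.137% of all promoters and in 0.178% of those of the genes tested. The ERSE-II occurred in 1 member (Herpud1, 2.33%), in 0.0444% of all promoters and in 0.0888% of those of the genes tested. A share that rests on 1 match cannot be weighed against these. The 3 members with either element were those with the 3 largest increases in ER stress, 6.97, 4.04 and 2.69. Members and motifs were chosen with earlier results of these data known, so this order is a description and was not tested. Among the 40 members whose window held neither, 11 rose, the median was 0.74 and the highest was Sel1l at 2.53.

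The core of the UPRE, TGACGTGG, occurred in 5 members (11.6%), in 0.714% of all promoters and in 1.08% of those of the genes tested. These were Sec24d, Vcp, Ube2j1, Sec23a and Kdelr3, and none of them was past 2-fold in ER stress, with differences from 0.31 to 0.87. Read on the other strand it is CCACGTCA, whose first bases are the CCACG of the ERSE. The composite element bound by CHOP and ATF4, TGATGCAA, occurred in Herpud1 alone among the members (2.33%, against 1.03% of all promoters and 0.699% of those of the genes tested), where it lies on the other strand 112 bases before the start as TTGCATCA. A match describes the letters of a window and does not show binding, and the absence of a match says only that these letters are not in this window. The 12 members without an entry in the promoter table were Derl1, Erlec1, Kdelr2, Lman1, Sec11c, Sec61a1, Spcs3, Srp19, Srp68, Ssr2, Tram1 and Ube2g2.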

How the data were processed

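The authors made stranded poly(A) RNA libraries, sequenced them as paired ends, quantified them with kallisto (version 0.43.1 per the labels) against the GRCm38 cDNA of Ensembl release 90, and deposited 1 TPM value per gene, the sum of its transcripts. TPM keep no read counts, so the depth is unknown and no counting interval can be given. Samples were grouped by their treatment labels. Here log2(TPM + 1) in the control was subtracted from that in each condition, with Python 3.11.15, pandas 2.3.3 and numpy 2.4.6. A change was called when past 2-fold, among the 12909 genes that averaged 2 TPM or more, and no test was run because each condition had 1 library. The code was tested on simulated data. The rule for named genes took every member past 2-fold, the lowest and highest of each step, set members and checks, and the 3 largest changes past 2-fold in each other list in ER stress. Sar1b and other members within 2-fold were named after their values were seen. Gene locations came from GENCODE M21 (GRCm38). Words of 31 bases shared between transcripts were counted in the reference. Alternatives were pseudocounts of 0.1 and 5 TPM, no filter, a mean of at least 10 TPM, centring, removal of mitochondrially encoded genes, the glucose depletion library as reference, a 1.5-fold threshold and, added after seeing the data, Sec61g summed with Gm10177. The members, the lists and the motifs were chosen with earlier results of these data known. The other experiments of the study were not analysed here.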

Additional observations from a re-analysis of the deposited data

How the results depend on the processing

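No paired analysis was possible because each condition had 1 library. No change past 2-fold turned its sign under any setting, but small medians did, as given below. Without a filter and with a mean of at least 10 TPM, every count stayed the same. Removal of 37 mitochondrially encoded genes gave 3 other translocation genes up in ER stress instead of 4 and 6 other COPII and ER-Golgi genes instead of 7. Of 22 changes past 2-fold, 18 remained with a pseudocount of 5 TPM, 22 with 0.1 TPM, 21 after centring on the median of all genes, 20 with Sec61g summed with Gm10177 and 14 of the 21 that could be computed with the glucose depletion library as reference. With no replicates, a median counted as moved when it shifted by more than 0.1, and a count when it left a range of 1.5 times.

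With the glucose depletion library as reference, 12 members rose in ER stress instead of 19, where 9.02% of genes tested rose, and 1 other translocation gene instead of 4. The step medians in ER stress were then 0.57 for the translocon and signal peptidase and 0.20 for COPII and the KDEL receptors. The same reference gave 1 member down in glutamine depletion, where 2.37% of genes tested fell. Member medians against it were -0.28 in glutamine depletion, -0.28 in hypoxia, -0.19 in osmotic stress and -0.31 in oxidative stress. For the translocon and signal peptidase they were -0.40, -0.32, -0.21 and -0.39 in these 4 conditions, for signal recognition -0.17, -0.33, -0.35 and -0.33, and for COPII and the KDEL receptors -0.31, -0.27, -0.18 and -0.29.

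Centring moved the member median to 0.094 in osmotic stress and -0.028 in oxidative stress. The step medians then were 0.10 and -0.062 for degradation, 0.15 and -0.057 for the translocon and signal peptidase, -0.061 and 0.046 for signal recognition, and 0.060 and -0.019 for COPII and the KDEL receptors. The sign thus turned for the members, degradation, and COPII and the KDEL receptors in osmotic stress and for signal recognition in oxidative stress. In glutamine depletion centring also turned degradation from -0.052 to 0.037 and signal recognition from -0.025 to 0.064, and in osmotic stress the glucose depletion reference turned the translocon and signal peptidase from 0.034 to -0.21. With centring, 0 members fell in oxidative stress.

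At 1.5-fold, 33 members rose in ER stress, 2 in glucose depletion, 1 in hypoxia, 4 in osmotic stress and 1 in oxidative stress, where 19.0%, 3.47%, 7.23%, 6.56% and 7.27% of genes tested rose. At that threshold 1 member fell in glutamine depletion, 1 in osmotic stress and 2 in oxidative stress, where 10.6%, 19.5% and 16.2% of genes tested fell. In ER stress, the genes up and down at 1.5-fold were 10 and 2 for other degradation, 7 and 1 for other translocation and 15 and 2 for other COPII and ER-Golgi transport, and 2 COPI genes were up.

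A pseudocount of 0.1 TPM gave 2 members up in glucose depletion and 1 down in glutamine depletion. A pseudocount of 5 TPM gave 0 members up in glucose depletion, 0 up in osmotic stress and 0 down in oxidative stress, and 3 other degradation genes up in ER stress. With Sec61g summed with Gm10177, a setting chosen after seeing the data, 0 members rose in glucose depletion, which the small share of Sec61g in that sum fixed beforehand. The other shifts follow from the settings themselves, and what lay behind them in the cells was not tested. TPM without read counts give no counting error, so low genes such as Derl3 outside ER stress have no known precision.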
